A study of Mus musculus with 12 samples.

Results

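The 45 genes described here encode the contractile, structural and calcium-handling proteins of the skeletal muscle sarcomere and the factors that specify muscle. They were taken by gene symbol from the 47729 genes of the expression files, and all 45 were present. In this set, 40 genes are sarcomeric or associated with muscle fibres, and 5 are myogenic transcription factors (Myod1, Myog, Myf5, Myf6 and Pax7). They were measured in 12 RNA-seq libraries of fat from male wild-type C57BL/6J mice aged 6 to 10 weeks and kept on a standard low-fat diet. Each of 4 depots gave 3 libraries, named here by depot and replicate (BAT 1): interscapular brown adipose tissue (BAT), and epididymal (EWAT), inguinal (IWAT) and retroperitoneal (RWAT) white adipose tissue. All 12 samples carried the same surgery, denervation of the fat. With no innervated fat analysed here, the effect of denervation was not measured and depot was the only factor. Whether the 3 libraries of each depot were taken from different mice is not stated in the labels. The p-values given here therefore reflect sample-to-sample spread alone, and that spread could be technical.

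Fat is not a contractile tissue, and skeletal muscle genes in a fat sample are often read as transcripts of muscle fibres or of fibre-like cells. The cell source was not tested here, and some members, such as Fbxo32, were present in every white fat library. In a fibre, myosin thick filaments and actin thin filaments slide past each other within the sarcomere, titin spans the sarcomere from Z-disc to M-band, and calcium released at the triad switches contraction on. Pax7 marks satellite cells, the resident stem cells of muscle. Myf5 and Myod1 commit such cells to the muscle lineage, Myog drives their differentiation, and Myf6 is the member of that family that stays expressed in mature fibres. Brown adipocytes and interscapular skeletal muscle share a Myf5-expressing embryonic lineage, and the interscapular brown pad lies against the muscles of the back.

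The libraries held 15699912 to 25633413 estimated counts. The labelled tissues were checked against marker genes, in TPM, a relative transcript level corrected for gene length. Ucp1, the uncoupling protein of brown fat, was at 1191, 21.7 and 563 TPM in BAT 1, 2 and 3, so BAT 2 lay below IWAT 2 (93.6 TPM) in this marker. The 5 brown adipocyte markers (Ucp1, Cidea, Dio2, Elovl3 and Cox7a1) summed to 2423, 151 and 1130 TPM in BAT. BAT 2 was thus below IWAT 1 and 2 (170 and 297 TPM). In TMM-scaled CPM, described below, it was also below IWAT 2 in Cidea, Dio2 and Elovl3, and above it in Cox7a1. The BAT 2 label was kept as given. The 6 adipocyte markers summed to 4442 to 15181 TPM in the 11 libraries other than RWAT 3, which held 2792 TPM and the lowest level of 5 of the 6. RWAT 1 and 2 held 15181 and 4792 TPM, so in these markers RWAT 3 was lowest but nearer to RWAT 2 than to RWAT 1. RWAT 3 stood apart from both in the muscle genes given next. For that reason, edgeR's counts of called members are given with and without it.

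Muscle transcripts were abundant in the 3 BAT libraries and in RWAT 3. The 40 sarcomeric and associated genes summed to 5066, 5631 and 1323 TPM in BAT 1, 2 and 3, and to 134, 212 and 8524 TPM in RWAT 1, 2 and 3. The EWAT libraries held 161, 225 and 161 TPM and the IWAT libraries 90.1, 95.99 and 131 TPM. BAT did not overlap EWAT or IWAT in this sum, whereas RWAT 3 lay above every BAT library and the other RWAT libraries below every one. As a share of all counts, the 40 genes took 1.099% of BAT 1 (exact Clopper-Pearson 95% interval 1.095% to 1.104%), 0.214% of BAT 3 (0.212% to 0.216%) and 1.78% of RWAT 3 (1.77% to 1.79%). Such intervals cover counting error only. In tissue RNA, fewer cells of a type and less RNA per cell cannot be told apart.

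**Figure D1:**
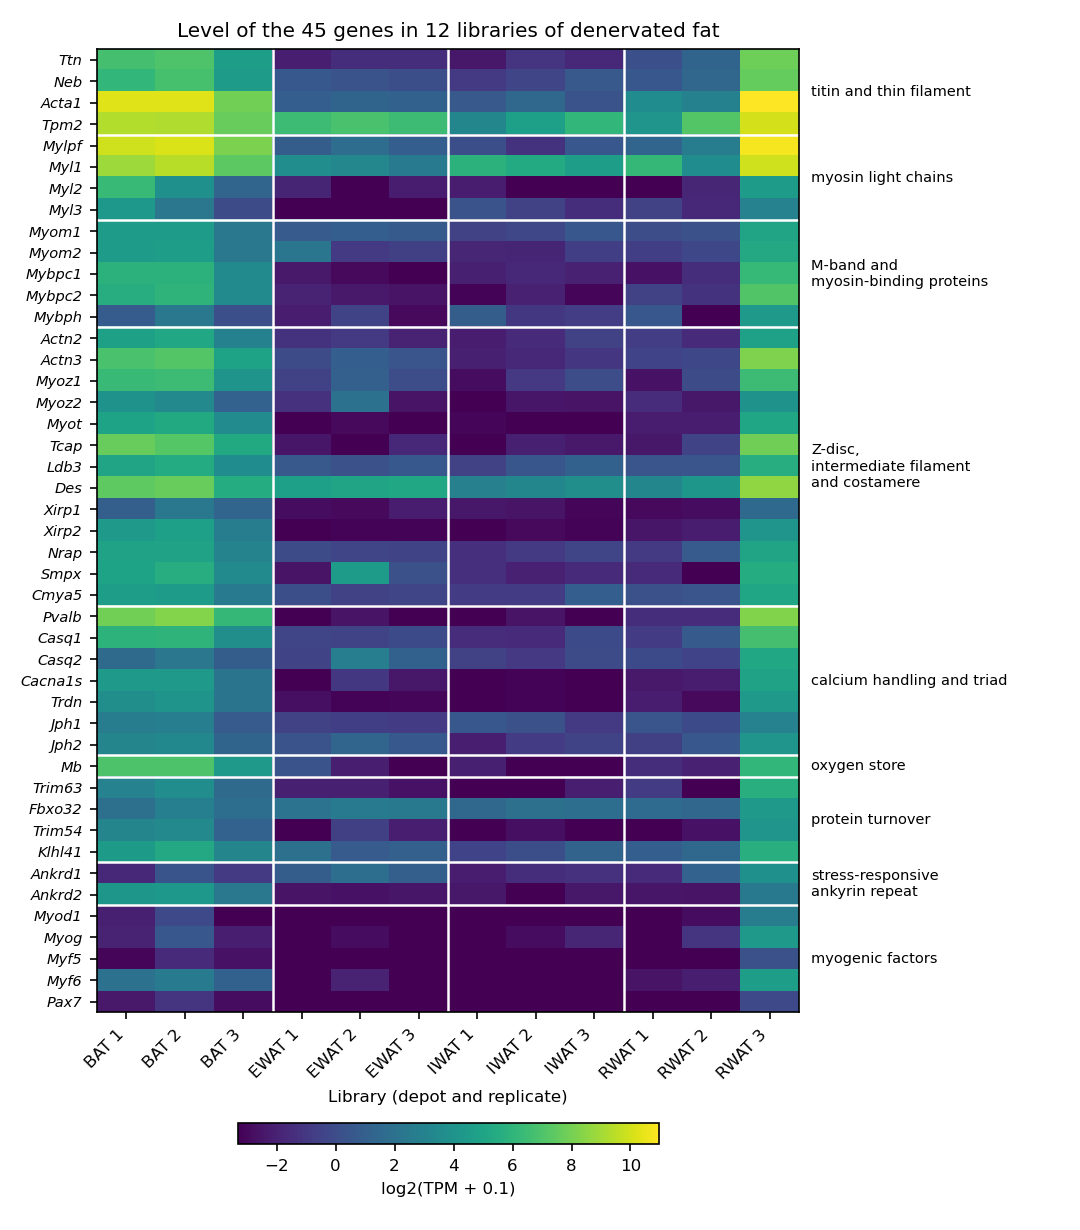
Level of the 45 genes (rows, grouped by role) in the 12 libraries (columns), as log2 of the deposited TPM plus 0.1, with the colour scale under the map. The 3 BAT columns and RWAT 3 are bright in most rows, and the 5 factor rows are brightest in RWAT 3.

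The place of RWAT 3 relative to BAT 1 depended on the scaling. In TMM-scaled CPM, counts relative to a library size that TMM corrects for composition, the 40 genes summed to 17879, 12131 and 2200 CPM in BAT 1, 2 and 3 and to 15183 CPM in RWAT 3, so BAT 1 was highest. RWAT 3 was the highest of the 12 libraries for 34 of the 45 genes in TPM, a place it held for 11% of the genes tested. In TMM-scaled CPM it was highest for 13 of the 45 (8.82% of the genes tested), and all 5 factors were among them on both scales. All 45 genes were higher in RWAT 3 than in RWAT 1 and RWAT 2 in TMM-scaled CPM, as were 29.9% of the genes tested.

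Gaps between depots were also read directly from TMM-scaled CPM. All 3 BAT libraries lay above all 3 EWAT libraries for 39 of the 45 genes, against 19.4% of the genes tested. Against IWAT this held for 40 of the 45, with 3.59% of the genes tested, and against RWAT for only Ankrd2 and Xirp1, with 7.46%. For 36 of the 45 genes, 3 factors among them, every BAT library lay above all 6 EWAT and IWAT libraries, as did 1.85% of the genes tested. The 9 exceptions were Ankrd1, Casq2, Fbxo32, Mybph, Myl3, Myod1, Myog, Myoz2 and Smpx.

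**Figure D2:**
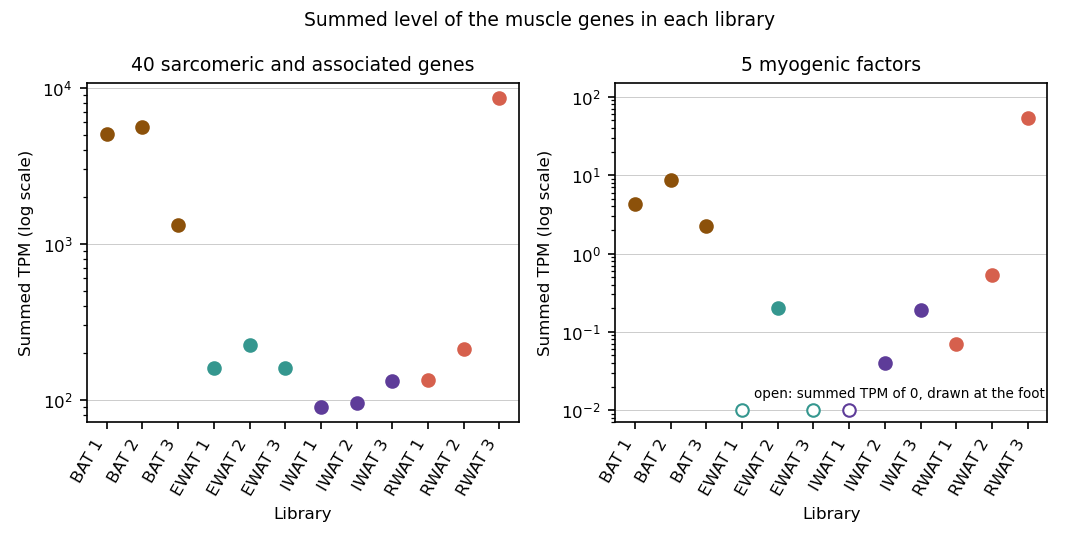
Summed TPM of the 40 sarcomeric and associated genes (left) and of the 5 myogenic factors (right) in each library, on log axes, with depots in colour, each point 1 library, and sums of 0 drawn open at the foot. RWAT 3 is at 8524 TPM on the left and 53.4 TPM on the right, where BAT 1, 2 and 3 are at 4.32, 8.72 and 2.27 TPM.

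Promoter sequence is shown for 3 genes that stand for the contractile genes that were high together (Acta1 and Mylpf) and for the factors (Myog). Each line gives the 250 bases before the RefSeq start of the gene (GRCm38.p6), 5′ to 3′ on the strand of the gene. Capitals mark CANNTG, the E-box letters that myogenic factors of the Myod1 family bind, and the CArG box, the serum response element core. Positions are chr8:123894776-123895025 (minus strand) for Acta1, chr7:127211358-127211607 (plus strand) for Mylpf and chr1:134289754-134290003 (plus strand) for Myog.
Acta1: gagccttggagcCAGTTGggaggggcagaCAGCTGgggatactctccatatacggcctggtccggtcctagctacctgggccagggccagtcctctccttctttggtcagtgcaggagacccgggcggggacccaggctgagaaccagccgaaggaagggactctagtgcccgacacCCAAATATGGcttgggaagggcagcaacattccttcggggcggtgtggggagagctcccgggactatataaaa
Mylpf: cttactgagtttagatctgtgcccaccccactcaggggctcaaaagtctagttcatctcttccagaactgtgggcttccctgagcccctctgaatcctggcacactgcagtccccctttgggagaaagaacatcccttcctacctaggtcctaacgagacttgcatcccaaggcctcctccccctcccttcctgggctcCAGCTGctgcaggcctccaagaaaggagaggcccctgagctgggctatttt
Myog: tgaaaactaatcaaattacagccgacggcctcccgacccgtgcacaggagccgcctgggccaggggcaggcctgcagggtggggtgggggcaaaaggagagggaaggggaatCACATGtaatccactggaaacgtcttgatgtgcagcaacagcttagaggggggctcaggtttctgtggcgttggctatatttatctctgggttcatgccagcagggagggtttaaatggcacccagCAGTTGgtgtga
Acta1 held 2 CANNTG matches, 1 of which was CAGCTG, and 1 CArG box. Mylpf held 1 CAGCTG, and Myog 2 CANNTG matches and 0 of CAGCTG or the CArG box. In the GENCODE M21 annotation of GRCm38, the Mylpf window lies within an intron of longer Mylpf transcripts, and the last bases of the Myog window are its 5′ untranslated region.

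RefSeq windows were found for 33 of the 45 genes, as 39 windows, since some genes have several starts. Myod1, Actn3, Xirp1, Myoz1, Fbxo32, Neb, Trdn, Myom2, Myf6, Myot, Jph1 and Tcap had none in the table used. CANNTG occurred in 84.6% of the 39 windows and in 66.2% of all 32851 windows of that length. CAGCTG, a subset of CANNTG, occurred in 48.7% against 13.0%, and the CArG box in 12.8% against 1.47%. All these motifs read the same on both strands. A match is a description of the letters, not of a bound site.

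Thin filament genes were among the most abundant. Acta1 (chr8:123891769-123894751), skeletal muscle actin, was at 1217, 1250 and 243 TPM in BAT 1, 2 and 3. It held 1.81, 2.37 and 2.05 TPM in EWAT, 1.51, 2.77 and 1.16 TPM in IWAT, and 12.1, 7.56 and 1992 TPM in RWAT 1, 2 and 3. Every BAT library lay above every EWAT and IWAT library, and the RWAT libraries straddled BAT. Ttn (chr2:76703980-76982547), the titin gene, was at 108, 132 and 24.7 TPM in BAT, 0.13, 0.27 and 0.26 TPM in EWAT, 0.09, 0.35 and 0.21 TPM in IWAT, and at 1.03, 2.36 and 223 TPM in RWAT. Neb, the nebulin gene, whose protein runs along the thin filament, was at 70.6, 112 and 22.5 TPM in BAT and 191 TPM in RWAT 3, against 0.43 to 2.52 TPM in the 8 remaining libraries (EWAT, IWAT, RWAT 1 and RWAT 2, called the other 8 from here on).

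Tpm2, a tropomyosin gene that smooth muscle also uses, kept a high floor. It was at 640, 620 and 201 TPM in BAT and 1063 TPM in RWAT 3, but also at 90.1, 116 and 89.3 TPM in EWAT and 140 TPM in RWAT 2. In IWAT it was at 9.41, 26.9 and 70.2 TPM, so its EWAT values lay above its IWAT values.

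The fast myosin light chains followed actin. Mylpf (chr7:127208890-127214298), the fast regulatory light chain, was at 985, 1142 and 285 TPM in BAT, 1.73, 3.38 and 1.85 TPM in EWAT, 0.96, 0.32 and 1.39 TPM in IWAT, and 2.45, 6.24 and 1742 TPM in RWAT. Myl1, the fast essential light chain, was at 467, 692 and 163 TPM in BAT and 972 TPM in RWAT 3. Elsewhere it was at 6.12 to 12.7 TPM in EWAT, 24.8 to 58.4 TPM in IWAT and 72.1 TPM in RWAT 1. IWAT 1, IWAT 2 and RWAT 1, the highest of these, were also the 3 highest libraries of all in summed adipocyte markers (14868, 14475 and 15181 TPM), and the part of adipocytes in the Myl1 level was not tested.

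The slow light chains set BAT 1 apart. Myl2, the regulatory light chain of slow and cardiac fibres, was at 80.4, 14.5 and 2.47 TPM in BAT 1, 2 and 3 and at 23.6 TPM in RWAT 3, with 0 to 0.19 TPM in the other 8 libraries. Myl3, its essential partner, was at 19.4, 4.92 and 0.85 TPM in BAT and 8.02 TPM in RWAT 3, and overlapped IWAT, where it was at 1.15, 0.59 and 0.26 TPM. On the log2 scale of TPM, the median of the 40 genes was 0.21 higher in BAT 2 than in BAT 1, whereas Myl2 differed by -2.47. The slow myosin heavy chain Myh7, outside the set and named after its values were seen, ran the same way at 21.8, 4.32 and 0.10 TPM.

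M-band and myosin-binding genes held intermediate levels. Mybpc2, the fast myosin-binding protein C, was at 47.5, 61.4 and 10.8 TPM in BAT and 135 TPM in RWAT 3, against 0.01 to 0.61 TPM in the other 8. Mybpc1, its slow counterpart, was at 56.9, 58.0 and 11.3 TPM in BAT and 76.5 TPM in RWAT 3. Myom1 and Myom2, which crosslink thick filaments at the M-band, were at 22.5 and 22.8 TPM in BAT 1 and 31.7 and 39.3 TPM in RWAT 3. Myom2 had an outlying value of 4.68 TPM in EWAT 1, close to the 5.10 TPM of BAT 3. Mybph was low in BAT (1.66, 5.16 and 1.04 TPM), overlapped IWAT 1 (1.74 TPM) and was highest in RWAT 3 (20.5 TPM).

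The 13 Z-disc, intermediate filament and costamere genes anchor thin filaments and link them to the membrane. Actn3 (chr19:4861216-4877909), the alpha-actinin of fast fibres, was at 116, 140 and 31.0 TPM in BAT, 0.90, 1.86 and 1.24 TPM in EWAT, 0.14, 0.20 and 0.38 TPM in IWAT, and 0.64, 0.76 and 297 TPM in RWAT. Actn2, the isoform of all fibres, was at 27.4, 37.5 and 7.79 TPM in BAT and 28.4 TPM in RWAT 3, so RWAT 3 exceeded BAT 1 by far less in Actn2 than in Actn3. Tcap, the titin cap gene, was at 198, 148 and 40.4 TPM in BAT and 232 TPM in RWAT 3, and at 0 to 0.67 TPM elsewhere. Des, the muscle intermediate filament desmin, was at 172, 197 and 45.2 TPM in BAT, 26.1, 32.2 and 37.0 TPM in EWAT, 7.24, 9.27 and 13.4 TPM in IWAT, and 9.37, 19.1 and 383 TPM in RWAT. The EWAT level of Des thus came close to that of BAT 3, and EWAT did not overlap IWAT.

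The remaining Z-disc genes were low outside BAT and RWAT 3, except Smpx and Myoz2 in EWAT 2. Myoz1 (78.2, 86.9 and 16.9 TPM in BAT), Myot (30.6, 40.4 and 11.6), Xirp2 (20.0, 27.0 and 6.59), Nrap (29.7, 29.5 and 8.24), Ldb3 (32.9, 43.6 and 12.1) and Cmya5 (24.3, 24.1 and 5.67) peaked at no more than 2.05 TPM in the other 8 libraries. Their RWAT 3 levels were 87.0, 34.4, 17.7, 32.2, 46.9 and 34.7 TPM in the same order. In the other 8 libraries Cmya5, Ldb3 and Nrap still had 91 to 242, 54 to 105 and 27 to 103 counts. Xirp1, an actin-binding repeat protein, was low throughout at 1.92, 5.10 and 2.40 TPM in BAT and 2.86 TPM in RWAT 3. Smpx and Myoz2 had 1 outlying library in EWAT. Smpx, a small X-linked muscle protein, was at 31.1, 47.6 and 11.3 TPM in BAT and 45.8 TPM in RWAT 3, and at 23.1 TPM in EWAT 2 against 0.07 and 1.08 TPM in EWAT 1 and 3. Myoz2, the slow and cardiac calsarcin, was at 16.2, 10.5 and 2.18 TPM in BAT and at 4.07 TPM in EWAT 2 against 0.31 and 0.07 TPM.

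Most calcium-handling genes were high in BAT and RWAT 3, while Casq2 and Jph2 overlapped EWAT in TPM. Pvalb, the calcium buffer of fast fibres, was at 246, 319 and 73.4 TPM in BAT and 304 TPM in RWAT 3, with 0 to 0.26 TPM in the other 8 libraries. Casq1 (chr1:172209894-172219868), the fast calsequestrin that stores calcium, was at 61.2, 62.9 and 13.3 TPM in BAT, 0.68, 0.66 and 0.82 TPM in EWAT, 0.25, 0.23 and 0.81 TPM in IWAT, and 0.48, 1.52 and 109 TPM in RWAT. Cacna1s, the voltage sensor of the triad, was at 21.1, 20.3 and 4.37 TPM in BAT and 29.5 TPM in RWAT 3, with at most 0.39 TPM elsewhere. Trdn and the junctophilins Jph1 and Jph2, which hold the triad together, were at 13.0, 6.40 and 9.10 TPM in BAT 1 and at 21.3, 8.08 and 17.4 TPM in RWAT 3. Jph2 was at 2.36 TPM in BAT 3, below the 2.46 TPM of EWAT 2. Casq2, the slow and cardiac calsequestrin, was at 2.91, 4.96 and 1.74 TPM in BAT, 36.7 TPM in RWAT 3 and 6.89 TPM in EWAT 2, above every BAT library.

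Mb, the myoglobin gene that stores oxygen in oxidative fibres, was at 127, 126 and 21.4 TPM in BAT and at 70.1 TPM in RWAT 3. It was therefore lower in RWAT 3 than in BAT 1 and 2, although RWAT 3 held more of the summed set in TPM. Outside BAT and RWAT 3 it was at 0 to 1.14 TPM.

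The protein turnover genes include the ubiquitin ligases that are induced when muscle wastes. Trim63 (MuRF1) was at 7.86, 12.5 and 2.93 TPM in BAT, 0.14, 0.14 and 0.06 TPM in EWAT, 0, 0 and 0.13 TPM in IWAT, and 0.47, 0 and 50.04 TPM in RWAT. Fbxo32 (atrogin-1), the other ligase, was at 3.83, 7.10 and 3.54 TPM in BAT, 4.30, 6.05 and 5.38 TPM in EWAT, 2.79, 3.71 and 3.51 TPM in IWAT, and 3.11, 2.51 and 19.9 TPM in RWAT. In TPM, BAT overlapped each white depot in Fbxo32, EWAT lay above IWAT, and RWAT 3 was the highest library. Trim54 and Klhl41, which stabilise the sarcomere, were at 8.98 and 22.04 TPM in BAT 1 and 17.4 and 49.3 TPM in RWAT 3.

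The ankyrin repeat genes, both responsive to stretch, split. Ankrd2 was at 18.5, 19.2 and 5.16 TPM in BAT, 5.28 TPM in RWAT 3, and 0 to 0.09 TPM elsewhere. Ankrd1 was at 0.21, 1.19 and 0.44 TPM in BAT, 1.74, 3.44 and 1.94 TPM in EWAT, 0.11, 0.26 and 0.31 TPM in IWAT, and 0.23, 2.13 and 14.1 TPM in RWAT. It was the only member of the 40 whose EWAT libraries all lay above all BAT libraries in TPM.

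The 5 myogenic factors were far lower than the contractile genes, and highest in RWAT 3. Myog (chr1:134289989-134292548) was at 0.17, 1.36 and 0.13 TPM in BAT, 0, 0.04 and 0 TPM in EWAT, 0, 0.04 and 0.19 TPM in IWAT, and 0, 0.36 and 20.4 TPM in RWAT. Myod1 was at 0.14, 0.78 and 0 TPM in BAT and 6.60 TPM in RWAT 3, with 1 count in all in the other 8 libraries. RWAT 3 therefore exceeded the highest BAT library, BAT 2, in both. BAT 3 and IWAT were both at 0 for Myod1, and BAT overlapped IWAT for Myog. Myf6, the factor of mature fibres, was at 3.89, 6.00 and 2.04 TPM in BAT, 0, 0.16 and 0 TPM in EWAT, 0 in each IWAT library, and 0.07, 0.13 and 24.5 TPM in RWAT. It made up most of the factor level in every BAT library. Myf5 and Pax7 were also low, at 0.02, 0.24 and 0.06 TPM and 0.10, 0.34 and 0.04 TPM in BAT and 1.08 and 0.79 TPM in RWAT 3, with 0 counts in the other 8 libraries. A count of 0 allows up to 3 counts, or 0.117 to 0.191 unscaled CPM depending on the library.

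Set against the contractile genes of the same library, the factors were also a larger part in RWAT 3 than in the BAT libraries. Per 10000 counts of the 45 genes, the 5 factors had 4.79 (exact 95% interval 3.94 to 5.78) in BAT 1, 9.26 (7.93 to 10.7) in BAT 2, 10.7 (7.86 to 14.1) in BAT 3 and 32.0 (30.0 to 34.2) in RWAT 3. The RWAT 3 interval did not overlap that of any BAT library, while those of BAT 2 and 3 overlapped each other. It did overlap those of RWAT 2 (20.0, 9.59 to 36.7, from 10 factor counts) and IWAT 3 (12.1, 2.50 to 35.4, from 3), and no others. Per length, the factors were at 0.853, 1.55 and 1.72 TPM per 1000 TPM of the 40 genes in BAT and 6.26 in RWAT 3. Myog with the 40 genes had 0.22 (0.071 to 0.513), 1.51 (1.00 to 2.18), 0.667 (0.137 to 1.95) and 12.4 (11.2 to 13.8) per 10000 counts in the same libraries. Myf6 had 4.05 (3.26 to 4.96), 5.49 (4.48 to 6.67), 8.66 (6.16 to 11.8) and 12.3 (11.1 to 13.7), so its BAT 3 and RWAT 3 intervals overlapped. RWAT 3 is 1 library and was picked out by its own levels, so its contrast with BAT is described and not tested.

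Within the 40 genes, the BAT libraries and RWAT 3 were compared gene by gene. Across the 40 genes, which share the libraries and are not independent replicates, Pearson's r of log2 TPM was 0.988 between BAT 2 and 3, 0.952 between BAT 1 and 2 and 0.918 between BAT 1 and 3. Between RWAT 3 and BAT 1, 2 and 3 it was 0.836, 0.914 and 0.908. With each gene taken per 1000 TPM of the 40, 31 of the 40 were within 2-fold of BAT 1 in RWAT 3, 31 within 2-fold of BAT 2 and 32 within 2-fold of BAT 3. Mybph, Casq2, Trim63 and Ankrd1 took over 2-fold more in RWAT 3 than in each BAT library, by 1.39 to 2.87, 1.71 to 2.90, 1.40 to 1.92 and 2.31 to 5.32 on the log2 scale. Ankrd2 took over 2-fold less than in each BAT library, at -2.65 to -2.46, and Mb was at -1.61, -1.44 and -0.98 against BAT 1, 2 and 3. Acta1 and Mylpf were level, at -0.04 to 0.35 and -0.08 to 0.07. These shares do not depend on the scaling of the libraries.

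**Figure D3:**
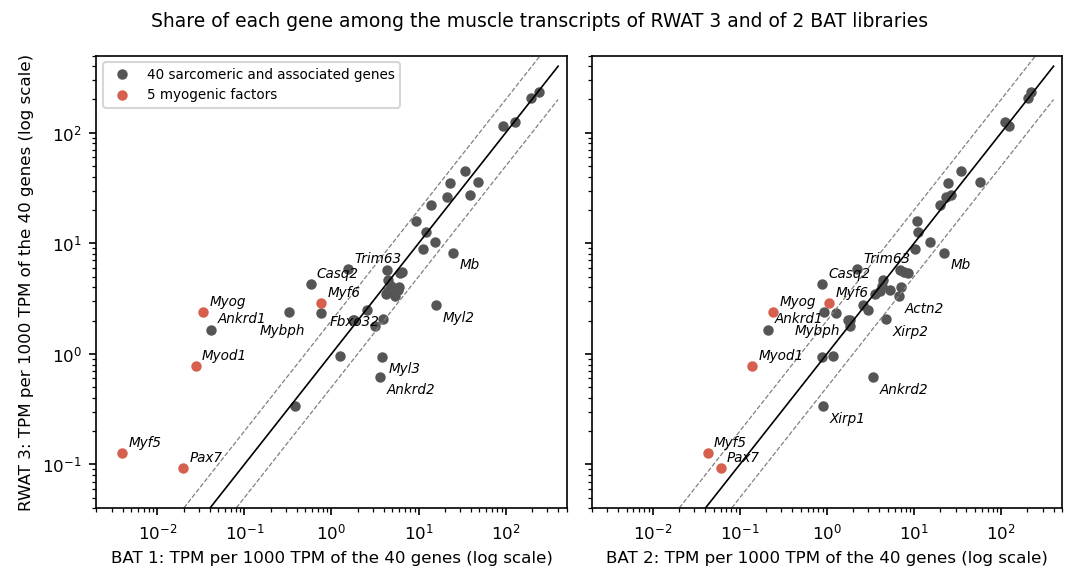
TPM of each gene per 1000 TPM of the 40 sarcomeric and associated genes in RWAT 3 (y axis) against BAT 1 (left) and BAT 2 (right), on log axes, with the line of equality solid and 2-fold limits dashed. Most of the 40 genes lie between the dashed lines, and the 5 factors lie above the equality line, outside the 2-fold limit in both panels except Pax7 against BAT 2.

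The fit of all 12 libraries asked whether the depots differed beyond the spread of their libraries. Of the 45 genes, 41 passed the low-count filter, and Myod1, Myog, Myf5 and Pax7 did not. In a fit of IWAT and EWAT alone, 21 of the 45 passed, so other members passed only with BAT or RWAT in the fit. Counts over the tested members are therefore descriptions and support nothing by themselves. For BAT against EWAT, edgeR's quasi-likelihood test called 0 of 41 at an adjusted p under 0.05, where 0.783% of all genes tested were called. At an unadjusted p under 0.05 there were 35 of the 41, all higher in BAT (27.7% of all genes, in either direction). The median log2 fold change of the 41 was 6.62, or 6.65 with genes of 3 or fewer counts set at the floor of 3 counts over the depot, against -0.08 over all genes. DESeq2 called 32 higher (9.89% of all genes) and limma-voom 0. edgeR called 30 of 40 with BAT and EWAT alone in the fit, and 26, 26 and 4 without BAT 3, RWAT 1 or RWAT 2, all higher in BAT. A replicate block also changed the call, and its count is given at the end. The shares of all genes called in these edgeR settings are not given, so their counts are not read as particular to the members.

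Against IWAT the values were similar and the threshold was not passed either. edgeR called 0 of 41 (0.0104% of all genes), with 38 at an unadjusted p under 0.05 (3.85%) and a median of 7.65, or 7.52 at the floor, against -0.04 over all genes. DESeq2 called 32 higher in BAT (0.851%) and limma-voom 0. Against RWAT the median was 1.32, against -0.07 over all genes, with 0 calls (0.0574%), 2 at an unadjusted p under 0.05 (14.8%), 0 by DESeq2 (1.09% of all genes called higher in BAT) and 0 by limma-voom.

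Without RWAT 3, many members passed. The same test of edgeR was run on 11 libraries, and 41 members were again tested at an adjusted p under 0.05. Of these, 31 were higher in BAT than in EWAT (1.14% of all genes), 29 higher than in IWAT (0.452%) and 16 higher than in RWAT 1 and 2 (0.185%), and 0 were lower. Leaving out each library was planned, but RWAT 3 was singled out after its high levels of these same genes were seen. Calls and p-values without it, above all those against RWAT, are therefore descriptions and not independent tests. DESeq2 on all 12 libraries shared 28 of the 31 and 27 of the 29. By role, against EWAT the calls were 3 of 4 thin filament and titin genes, 3 of 4 light chains, 3 of 5 M-band genes, 11 of 13 Z-disc genes, 5 of 7 calcium genes, Mb, 3 of 4 turnover genes, Ankrd2 and Myf6. The 10 not called were Tpm2, Myl3, Myom2, Mybph, Myoz2, Smpx, Casq2, Jph2, Fbxo32 and Ankrd1.

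Ttn had 4349 ± 3363 TMM-scaled CPM (mean ± SD, n = 3) in BAT, 9.59 ± 1.62 in EWAT and 8.80 ± 2.03 in IWAT. Its log2 fold change against EWAT was 8.81 (SE 2.16, edgeR adjusted p = 0.0663) with 12 libraries and 8.82 (SE 0.93, adjusted p = 0.00261) without RWAT 3. The estimate hardly moved and its error fell. Against IWAT it was 8.95 (SE 2.17, edgeR adjusted p = 0.733) and 8.94 (SE 0.94, adjusted p = 0.00456). Against RWAT, which held 2466 ± 4210 CPM, it was 0.82 (SE 1.55, edgeR adjusted p = 0.776) and, without RWAT 3, 6.96 (SE 1.04, adjusted p = 0.0364).

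Acta1, Mylpf and Actn3 were tested in the same way. Acta1 differed from EWAT by 9.62 (edgeR adjusted p = 0.0638, and 0.00261 without RWAT 3) and from IWAT by 9.42 (0.733 and 0.00456). Mylpf differed from EWAT by 9.65 (edgeR adjusted p = 0.0676, and 0.00198 without RWAT 3) and from IWAT by 10.68 (0.733 and 0.00307). Actn3 differed from EWAT by 6.90 (edgeR adjusted p = 0.0817, and 0.00261 without RWAT 3) and from IWAT by 9.36 (0.733 and 0.00307). Against RWAT these 3 genes had log2 fold changes of 1.33, 1.27 and 0.76, and 7.30, 8.72 and 7.70 without RWAT 3, where all were called. Tpm2 was not called in any of the 3 comparisons without RWAT 3 (edgeR adjusted p = 0.0800, 0.123 and 0.449), and Myl1 was called against EWAT (0.0209) and not against IWAT or RWAT (0.268 and 0.335).

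Casq1 differed from EWAT by 6.94 (SE 1.84, edgeR adjusted p = 0.0703) and from IWAT by 7.52 (SE 1.91, adjusted p = 0.733). Without RWAT 3 it passed the test against both (adjusted p = 0.00867 and 0.00932) and not against RWAT (0.0673). Cacna1s differed from RWAT by 1.32 (edgeR adjusted p = 0.654), and by 8.33 (0.0536) without RWAT 3. Des, with its high level in white fat, differed by 2.93 (SE 1.19, edgeR adjusted p = 0.149) and 4.43 (SE 1.28, adjusted p = 0.733) from EWAT and IWAT. It was called against both without RWAT 3 (adjusted p = 0.0412 and 0.0165) and not against RWAT (0.0719).

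Members at or near 0 counts in a white depot have fitted folds that depend on the prior count, so ratios of summed counts are given for them. Myf6 had 233 counts in BAT and 0 in IWAT, at least 91.9-fold higher with the floor of 3 counts over the depot. Such bounds take the BAT count as observed, without its counting error, and are not limits of a 95% interval. Against the 3 counts of EWAT the ratio of Myf6 was 101 (exact 95% counting interval 34.0 to 491). Its edgeR adjusted p was 0.118 and 0.818 with 12 libraries, and 0.0340 and 0.0393 without RWAT 3. Myl2 had 728 counts in BAT and 2 in EWAT, a ratio of 471 (counting interval 130 to 3897). BAT 1 alone held 629 of the 728, and without it, an alternative chosen after seeing the data, the ratio was 86.8 (23.4 to 727). edgeR called it against EWAT without RWAT 3 (adjusted p = 0.0398, and 0.0737 with 12 libraries) and not against IWAT (0.0862) or RWAT (0.214). Cacna1s had 3528 counts in BAT and 1 in IWAT, a ratio of 4172 (counting interval 748 to 164850). Leaving out each BAT library in turn gave ratios of 2616 to 6565 for Cacna1s. Its adjusted p against EWAT and IWAT was 0.0751 and 0.733 with 12 libraries, and 0.00939 and 0.00773 without RWAT 3.

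Myod1 had 25 counts in BAT, 20 of them in BAT 2, and 0 in EWAT and in IWAT, which makes it at least 10.8-fold and 9.86-fold higher. Pax7 also had 25 counts in BAT against 0 and 0, with the same bounds. Myf5, with 10 counts in BAT, was at least 4.31-fold and 3.94-fold higher. Myog had 36 counts in BAT, 1 in EWAT and 4 in IWAT, and the ratio to EWAT was 46.6 (counting interval 7.85 to 1891). BAT 2 held 28 of the 36 counts of Myog, 15 of the 25 of Pax7 and 7 of the 10 of Myf5. Without BAT 2, an alternative chosen after seeing the data, Myod1 was at least 3.15-fold and 2.88-fold higher than EWAT and IWAT, and Pax7 at least 6.30-fold and 5.76-fold higher. Myog then had a ratio to EWAT of 15.1 (counting interval 2.03 to 671), and Myf5, with 3 counts left in BAT, was at the floor. Without BAT 3 the bound for Myod1 was 18.7-fold and 17.1-fold, and the ratio of Myog to EWAT was 73.9 (12.4 to 3006). These 4 factors did not pass the filter, and intervals from summed counts leave out the spread between libraries, so no test stands behind these bounds. The bounds also take the BAT counts as observed, without their counting error.

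Trim63 was at 15.9 ± 10.3 TMM-scaled CPM (n = 3) in BAT and 0.126 ± 0.0659 in EWAT. edgeR did not call it against EWAT with 12 libraries (log2 6.88, SE 2.17, adjusted p = 0.0909) and did without RWAT 3 (adjusted p = 0.0325). Against IWAT, with 2 counts, its ratio was 409 (counting interval 113 to 3381; edgeR adjusted p = 0.733, and 0.0391 without RWAT 3), and leaving out each BAT library in turn gave 315 to 623. Fbxo32 differed by 0.56 (SE 0.66, edgeR adjusted p = 0.58) from EWAT and 0.88 (SE 0.67, adjusted p = 0.998) from IWAT, and was not called without RWAT 3 (0.28 and 1). Ankrd1 was the single tested member whose fitted value was below EWAT, at -1.42 (SE 1.05, edgeR adjusted p = 0.377). Against RWAT, the log2 fold changes of Trim63, Fbxo32 and Myf6 were -0.31, -0.12 and -0.26 (edgeR adjusted p = 0.921, 0.929 and 0.935) and turned positive without RWAT 3, at 5.64, 1.40 and 5.99.

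With 12 libraries, Ankrd2 had the smallest p of the set in all 3 BAT comparisons. Its 753 counts in BAT stood against 3 in EWAT and 3 in IWAT, ratios of 325 (counting interval 111 to 1579) and 297 (101 to 1443), with edgeR adjusted p = 0.0562 and 0.733. Leaving out each BAT library in turn gave ratios of 217 to 498 and 198 to 455. Against RWAT, at 17.6 ± 13.0 and 1.21 ± 2.01 TMM-scaled CPM (mean ± SD of 3 libraries each), its log2 fold change was 3.86 (SE 1.28, edgeR adjusted p = 0.319). Ankrd1 ran the other way there at -2.57 (SE 1.07, edgeR adjusted p = 0.328), and these were the only members under 0.05 unadjusted with 12 libraries. Without RWAT 3, edgeR called Ankrd2 against EWAT, IWAT and RWAT (adjusted p = 0.00344, 0.00512 and 0.0255), with a log2 fold change of 8.24 from RWAT, while Ankrd1 was at -0.33 against RWAT (adjusted p = 0.892). Pvalb then had the smallest p in all 3 comparisons (edgeR adjusted p = 0.00139, 0.00307 and 0.0223).

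**Figure D4:**
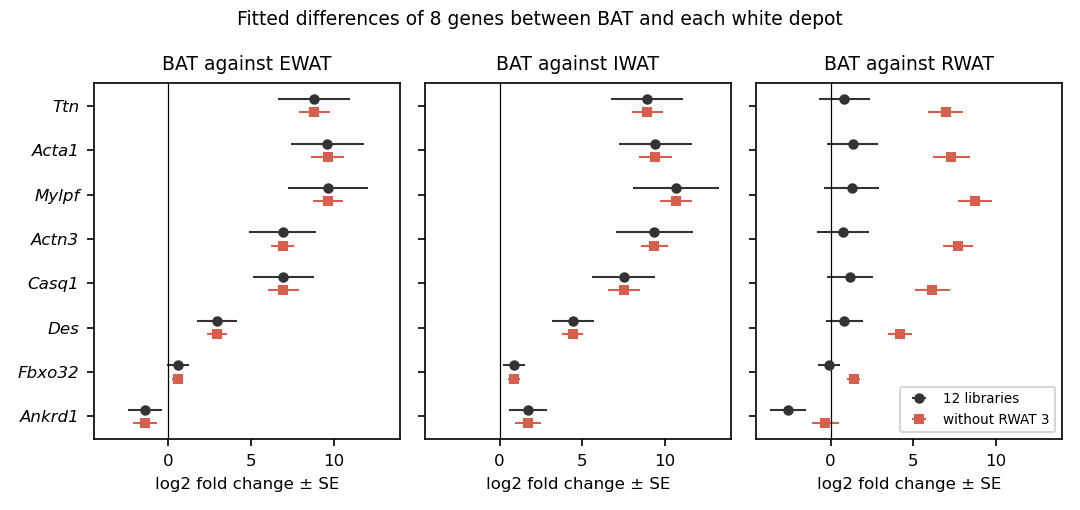
Log2 fold change of 8 genes with over 3 counts in every depot, BAT against EWAT, IWAT and RWAT, with the standard error of the edgeR fit, for 12 libraries (circles) and without RWAT 3 (squares). Without RWAT 3 the error bars shorten in the first 2 panels, and in the third Ttn moves from 0.82 to 6.96.

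Between the white depots the members rested on RWAT 3. For RWAT against EWAT, edgeR called 0 of 41 (0.0418% of all genes), with 31 at an unadjusted p under 0.05 (9.04%), DESeq2 19 higher (1.21%) and limma-voom 0. Xirp2 had the smallest p, with 2555 counts in RWAT, 2523 of them in RWAT 3, and 2 in EWAT, and an edgeR adjusted p of 0.207. For RWAT against IWAT, edgeR called 0 (0% of all genes), with 36 unadjusted (4.42%), DESeq2 21 higher (0.71%) and limma-voom 0. Mybpc2 led with a log2 fold change of 9.86 (SE 2.51, edgeR adjusted p = 0.693). Without RWAT 3, edgeR called 0 members in both (0.0291% and 0% of all genes), and the medians went from 5.13 to 0.09 and from 5.77 to 0.84. Xirp2 was then at 4.41 (edgeR adjusted p = 0.358) against EWAT, and Mybpc2 at 3.13 (adjusted p = 1) against IWAT.

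For IWAT against EWAT, the median log2 fold change of the 41 was -0.70, or -0.61 with the floor, against -0.04 over all genes. edgeR called 0 of 41 (0.345% of all genes), with only Ankrd1 at an unadjusted p under 0.05 (16.2%), and limma-voom called 0. Ankrd1 was lower in IWAT by -3.16 on the log2 scale (SE 1.15, edgeR adjusted p = 0.235), at 0.30 ± 0.0948 against 2.69 ± 1.13 TMM-scaled CPM (n = 3 each) with no overlap. DESeq2 called it (adjusted p = 0.0461) and Myl3, which was at 26 counts in IWAT and 0 in EWAT (adjusted p = 0.0478), with 5.94% of all genes called. With only these depots in the edgeR fit, Des was called lower in IWAT by -1.48 (SE 0.151, adjusted p = 0.023). Without RWAT 3, 0 members were called (0.432% of all genes), and 10 were under 0.05 unadjusted (19.5% of all genes), 8 lower and 2 higher in IWAT. Smpx and Myoz2 were at -5.04 and -4.11 there (edgeR adjusted p = 0.184 and 0.201). EWAT 2 alone held 285 of the 294 EWAT counts of Smpx and 61 of the 69 of Myoz2. Also among the 8 lower, Casq2 had 151 counts in EWAT 2 against 14 and 30 in EWAT 1 and 3. Myom2, another of the 8, had 294 counts in EWAT 1 against 18 and 25 in EWAT 2 and 3.

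Within white fat, smooth muscle markers moved with Tpm2 and in part with Des. The 7 smooth muscle genes summed to 294, 404 and 288 TPM in EWAT, 49.8, 94.7 and 204 TPM in IWAT, 92.0, 362 and 373 TPM in RWAT, and 36.3, 40.5 and 165 TPM in BAT, and none of the 7 was at 0 in RWAT 3. Tpm2, at 89.3 to 116 TPM in EWAT and 140 TPM in RWAT 2, was high in the same white libraries, and its order within IWAT and within RWAT 1 and 2 was that of the smooth muscle sum. Des had the same order within IWAT and within RWAT 1 and 2. Within EWAT, however, Des was highest in EWAT 3 (37.0 TPM), where the smooth muscle sum was the lowest of that depot. The part of smooth muscle in the levels of Tpm2 and Des was not tested. EWAT 2, which stood out for Smpx, Myoz2 and Casq2, also held 614 counts of Pgam2, a muscle glycolytic enzyme, and 158 of Tnni3, the cardiac troponin I, against 7 to 122 and 8 to 24 in EWAT 1 and 3, IWAT 1 to 3 and RWAT 1 and 2. Of the other defining cardiac genes, Myh6 had 15 counts, Nppa 0 and Nppb 4 in that library. EWAT 2 was the highest of the 12 libraries for Myh6 (6 in EWAT 3, the next) and Nppb (1 in IWAT 3, the next). It was also highest for Mybpc3 of the cardiac list (26 counts, with 18 in EWAT 3), whereas Tnnt2, Myl7 and Actc1 were highest in RWAT 3. Most of these counts are low, and the part of cardiac genes was not tested.

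Other muscle genes, from lists drawn up beside the set, placed the same libraries high. Against EWAT without RWAT 3, edgeR called 3 of 6 myosin heavy chains, 3 of 6 troponins and 9 of 11 muscle energy genes higher in BAT, and 0 of these lists lower. Over all genes, 1.14% were called higher in BAT in that fit. With 12 libraries edgeR called 0, 0 and 1, where 0.783% of all genes were called in either direction. The last was Cox8b, a respiratory chain subunit that brown fat also uses (log2 9.94, SE 1.87, edgeR adjusted p = 0.048). The adult fast myosin Myh4 was at 285, 429 and 76.7 TPM in BAT and 796 TPM in RWAT 3, and Ckm, muscle creatine kinase, at 1038, 1189, 247 and 1476 TPM. Of 5 brown adipocyte markers, 3 were called higher in BAT than in EWAT with 12 libraries (0.783% of all genes), and all 5 were highest in BAT 1. These were led by Ucp1 (log2 14.47, edgeR adjusted p = 0.0418, and 0.0172 without RWAT 3) and Elovl3 (9.11, 0.0496 and 0.0387). With 12 libraries, edgeR called 0 of 8 neuromuscular junction, 0 of 4 satellite cell and fusion, 0 of 5 cardiac, 0 of 6 adipocyte and 0 of 7 smooth muscle genes tested, in each of the 6 comparisons. Over all genes, 0% to 0.783% were called in these comparisons, so counts of 0 are not read as particular to the lists. Of 11 muscle gene regulators, edgeR called 0 in BAT against IWAT (0.0104% of all genes) and 0 in BAT against RWAT (0.0574%).

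Several genes of developing muscle were higher in RWAT 3 than in BAT, and the genes named here were chosen after their values were seen. Myh3, embryonic myosin heavy chain, was at 81.3 TPM in RWAT 3 and at 0.12, 5.62 and 0 TPM in BAT 1, 2 and 3. Myh8, the perinatal form, was at 35.8 TPM against 0.20, 4.69 and 0.30 TPM. Actc1, the cardiac and fetal muscle actin, was at 74.6 TPM against 1.28, 8.79 and 0.26 TPM. Acta1 and Mylpf, by contrast, were within 2-fold of BAT 1 and BAT 2 in RWAT 3. Chrng, the fetal subunit of the acetylcholine receptor, was at 6.06 TPM against 0, 0.41 and 0.07 TPM, and Chrna1, its alpha subunit, at 11.5 TPM against 0.18, 0.77 and 0.26 TPM. Mymk, the myoblast fusion protein, was at 14.9 TPM against 0, 0.53 and 0 TPM, and Cdh15, the cadherin of satellite cells and myoblasts, at 5.27 TPM against 0.48, 0.62 and 0.09 TPM. BAT 2 was the highest of the BAT libraries in TPM in each of these 7 genes. In TMM-scaled CPM this held for 6, with Cdh15 at 2.12 in BAT 1 and 1.63 in BAT 2. On that scale RWAT 2 was below RWAT 3 and BAT 2 in each gene. It was above BAT 1 and BAT 3 in Myh3 (3.09 against 1.15 and 0), Myh8, Chrna1 and Mymk, and not in Actc1, Chrng and Cdh15. For Myh8, however, RWAT 1 (2.35) was above RWAT 2 (2.16), and EWAT 1 (1.66), IWAT 1 (1.31) and IWAT 3 (1.55) were also above BAT 1 (1.28). Chrna1 was close, at 1.38 in RWAT 2 and 1.22 in BAT 1, and Mymk had only 4 counts in RWAT 2.

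By list, RWAT 3 was the highest of the 12 libraries in TPM for 9 of 11 neuromuscular junction genes, 6 of 8 satellite cell and fusion genes, 6 of 6 troponins and 3 of 6 myosin heavy chains. It held that place for 11% of the genes tested in TPM and 8.82% in TMM-scaled CPM. In TMM-scaled CPM the counts of the 4 lists were 8, 5, 1 and 3, and BAT 1 was highest for the other 5 troponins. On both scales RWAT 3 was highest for 3 of 8 cardiac genes, Tnnt2, Myl7 and Actc1, of which Tnnt2 and Actc1 are also genes of developing skeletal muscle. The defining cardiac genes Myh6, Nppa and Nppb were at 1.23, 1 and 0 counts there.

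**Figure D5:**
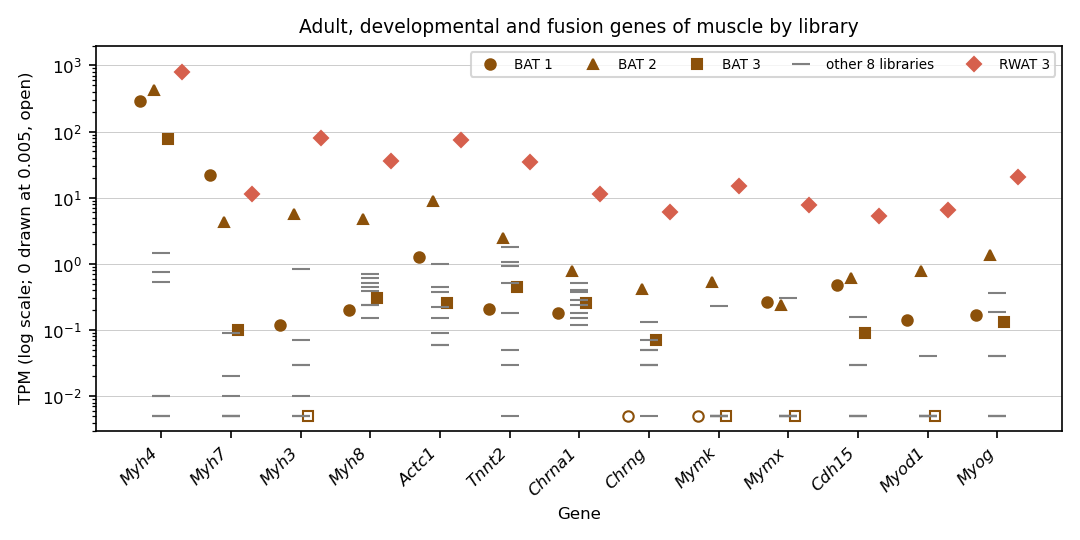
TPM of adult (Myh4, Myh7), developmental (Myh3, Myh8, Actc1, Tnnt2), receptor (Chrna1, Chrng), fusion and satellite cell (Mymk, Mymx, Cdh15) and factor genes (Myod1, Myog) on a log axis, with 1 symbol per BAT library and for RWAT 3, grey bars for the 8 others, and values of 0 drawn at the foot. RWAT 3 is at 81.3 TPM of Myh3, where BAT 1, 2 and 3 are at 0.12, 5.62 and 0 TPM.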

How the data were processed

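RNA of 12 denervated fat samples was sequenced after ribosomal RNA removal as single-end 75-base reads, per the labels' protocols. Trimmomatic 0.36, RSEM 1.3.0, DESeq2 1.10.1 and the build GRCm38.p4 are named, per the submitters' processing notes. The annotation was not given in the sources used here, nor was the strand setting, so reads of overlapping or antisense genes could not be told apart. The files deposited by the authors give, per gene, an expected count, that is an estimated number of reads that need not be whole, and a TPM value corrected for length and library. The deposited posterior standard deviations of the counts were at most 6.73% of the value for members with 100 or more counts.

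Expected counts were rounded to whole numbers. With R 4.3.3, edgeR 4.0.16 and limma 3.58.1, genes were filtered by filterByExpr (19154 of 47729 tested), scaled by TMM and fitted by edgeR's quasi-likelihood test with depot as the only term and all 12 libraries. Benjamini-Hochberg adjustment ran over all genes tested, with a threshold of 0.05, and SE is the absolute log2 fold change divided by the square root of F. The code was tested on simulated data. Library totals of 15699912 to 25633413 counts put the floor of 3 counts at 0.117 to 0.191 CPM. Alternatives were DESeq2 1.42.0, limma-voom, RLE or no composition scaling, other low-count filters, fits of 2 depots, a replicate block and leaving out each library.

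The members and lists were chosen with earlier results of these data known. All 45 members are given with levels. A core of 16 is given with tests in each BAT comparison where tested, and otherwise the called members or, with 0 called, the member with the smallest p. From lists of myosin heavy chains, troponins, muscle energy metabolism, neuromuscular junction, muscle gene regulators, satellite cell and fusion, cardiac muscle, smooth muscle, adipocyte and brown adipocyte genes, counts of calls and the leading genes are given. Member coordinates come from GENCODE M21 (GRCm38), and upstream windows from RefSeq (GRCm38.p6). The result of 1 listed gene is not reported here.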

Additional observations from a re-analysis of the deposited data

How the results depend on the processing

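Calls rested on the libraries in the fit and on the tool. Against EWAT, BAT had 0 members called by edgeR with all 12 libraries, 32 by DESeq2, 2 with no low-count filter (Xirp2 and Ankrd2) and 30 with only the 2 depots compared. Leaving out each library in turn gave 0 to 31 calls: 26 without BAT 3, 26 without RWAT 1, 4 without RWAT 2 (Myl1, Myot, Xirp2 and Ankrd2) and 31 without RWAT 3. Over all genes in this comparison, 1.14% were called higher in BAT without RWAT 3 and 9.89% by DESeq2. Where no share over all genes is given for a setting, its count is not read as particular to the members. Against IWAT, DESeq2 called 32 and leaving out each library gave 0 to 29. Against RWAT, leaving out each library gave 0 to 16. DESeq2 called 19 for RWAT against EWAT, 21 for RWAT against IWAT and 2 for IWAT against EWAT, where the fit of the 2 depots alone called 1, Des. Leaving each library out gave 0 in these 3 comparisons. RLE scaling, library sizes without TMM, a filter at 1 CPM in 3 libraries and limma-voom gave 0 calls in all 6. Leaving out RWAT 3 and EWAT 2 together, chosen after seeing the data, gave 19, 30 and 9 calls for BAT against EWAT, IWAT and RWAT. The cause of these differences was not tested.

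Some directions turned. For Fbxo32, BAT versus EWAT, the log2 fold change was -0.0154 without TMM, where the median of all genes tested was at -0.60. For Trim63, BAT versus RWAT, the log2 fold change was 3.77 with limma-voom and 5.65 without RWAT 3 and EWAT 2. Leaving out each library in turn gave -0.89 (without RWAT 2) to 5.64 (without RWAT 3), with 0.26 without BAT 3. For Fbxo32, BAT versus RWAT, these values were 0.42, 1.41, -0.57 to 1.40 and 0.27. For Myf6, BAT versus RWAT, they were 2.95, 5.99, -0.84 to 5.99 and 0.25.

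The replicate block, with the replicate number of the titles as a term, called 28 members for BAT against EWAT and 0 in the other 5 comparisons. Under the block Trim63, Fbxo32 and Myf6 were at 2.59, 0.063 and 2.40 in BAT against RWAT. Of 18 same-number pairs, 11 had a correlation of deviations over 0.1 (range -0.438 to 0.765), and 7 of 12 libraries correlated best with their own number, so the numbers were not taken to pair samples.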
